A study of Populus trichocarpa with 9 samples.

Results

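The wood CslA genes of black cottonwood (Populus trichocarpa) are described here as read counts in differentiating xylem of upright and bent stems. The CslA genes are the 2 rows Potri.010G234100 and Potri.008G026400 of a table of 41335 gene models. They were picked by ID as the CslA pair of wood, with the repression of PtrCslA2 by bending known from these same libraries. The gene list of the study gives Potri.010G234100 the name PtrCslA2. It gives no name for Potri.008G026400, which is called by its ID below.

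Cellulose synthase-like A (CslA) proteins are glycosyltransferases of the Golgi that join mannose and glucose from nucleotide sugars into the backbone of glucomannan. Glucomannan is a hemicellulose that coats cellulose microfibrils, and in hardwoods it is a minor partner of xylan in the secondary wall. Tension wood, which broadleaf trees form on the upper side of leaning stems, is known for fibers with a gelatinous layer of nearly pure cellulose.

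Stem differentiating xylem was scraped from the upper side of stems of greenhouse trees held at a right angle for 3 or 7 days, and from the matching place on upright trees labelled day 0. Each of the 3 groups had 3 libraries, and the labels name no transgene or drug. The study propagated its plants as clones from rooted branches. No upright tree was labelled day 3 or day 7, so the effects of bending and of the days that passed cannot be told apart. The study calls the replicates biological, and the sample titles do not say whether each came from a tree of its own.

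Total counts ranged from 20888144 to 29539805 per library, and 27795 genes passed the filter on low counts, both CslA genes among them. Levels are given in CPM, counts scaled to library size with TMM factors, with SD over n = 3 libraries. The 5 secondary wall cellulose synthases, which mark xylem cells that thicken their walls, together reached 3295 to 12794 CPM in every library. Unbent replicate 1 stood at one end of the first principal component of log2 CPM (-99.6, with 33.6% of the variance) and 7-day replicate 3 at the other (83.3). Markers of phloem, cambium and other cell types were not analysed here.

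One primer pair is listed for the named copy, and it was not aligned to either gene here. The study assayed PtrCslA2 transcripts by RT-qPCR with the oligonucleotides shown next, each 21 bases long and written 5′ to 3′ in lower case with no part marked.
PtrCslA2 forward: aacaagaagtggggtctgcaa
PtrCslA2 reverse: accgttgttcgatccttccaa
They tie the name PtrCslA2 to Potri.010G234100 in the primer list of the study, and no such pair was given for the other copy.

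PtrCslA2 was lower in every bent library than in every unbent one. In unbent xylem it measured 231, 171 and 361 CPM in replicates 1 to 3, at 3 days of bending 89.8, 68.5 and 42.5 CPM, and at 7 days 69.6, 40.4 and 18.6 CPM. The bent libraries did not overlap with the unbent ones, whereas the levels at 3 and 7 days overlapped with each other. Replicate 3 was the lowest library of each bent group but the highest of the unbent group.

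PtrCslA2 averaged 67.0 ± 23.7 CPM at 3 days and 254 ± 97.1 CPM in unbent xylem (SD, n = 3 each), a log2 fold change of -1.92 with SE 0.48. At 7 days it averaged 42.9 ± 25.6 CPM, against the same 254 ± 97.1 CPM in unbent xylem, a log2 fold change of -2.57 with SE 0.50. The mean level was thus 26.4% of the unbent mean at 3 days and 16.9% at 7 days. PtrCslA2 was chosen for this direction, so these values are a description and carry no test.

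Potri.008G026400 showed the same separation of bent from unbent libraries. It measured 1213, 844 and 1601 CPM in unbent replicates 1 to 3, then 303, 383 and 149 CPM at 3 days and 465, 262 and 278 CPM at 7 days. The lowest of its 9 libraries was 3-day replicate 3, and the highest bent library was 7-day replicate 1. The 3-day and 7-day libraries overlapped.

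Potri.008G026400 averaged 278 ± 119 CPM at 3 days and 1219 ± 378 CPM in unbent xylem, a log2 fold change of -2.13 with SE 0.41. At 7 days it averaged 335 ± 113 CPM, against the same unbent mean, a log2 fold change of -1.86 with SE 0.41. The mean level was 22.8% of the unbent mean at 3 days and 27.5% at 7 days. In bulk tissue, fewer cells that express a gene and less RNA per cell cannot be told apart.

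**Figure D1:**
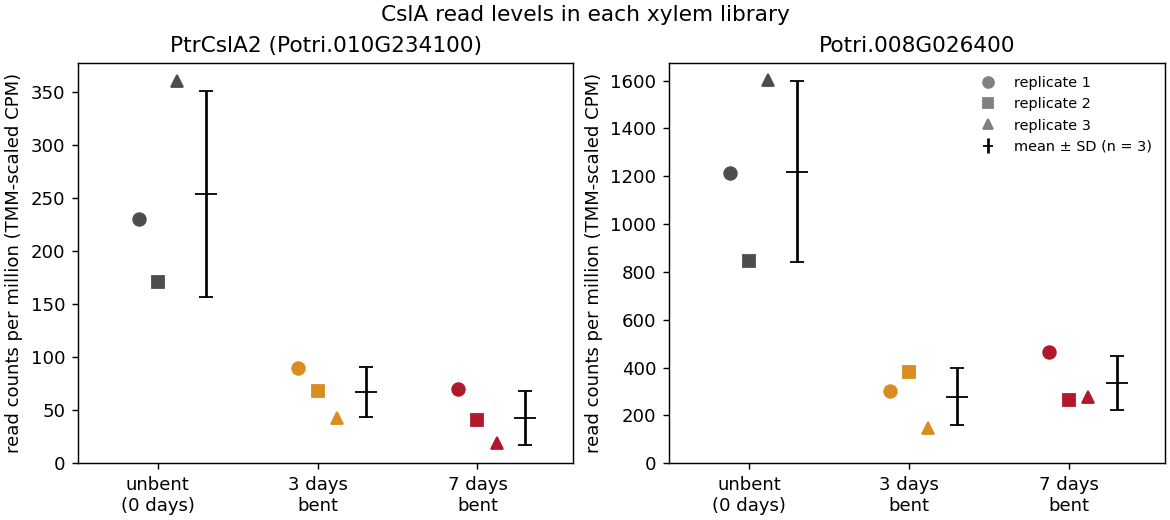
CPM (y axis, linear from 0) of PtrCslA2 (left) and Potri.008G026400 (right) in unbent xylem and after 3 and 7 days of bending. Points are libraries, with 1 shape per replicate number, and the bars beside them are mean ± SD (n = 3). The unbent libraries lie at 171 to 361 CPM for PtrCslA2 and at 844 to 1601 CPM for Potri.008G026400, above all bent libraries.

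Both copies therefore had all bent libraries below all unbent ones at both times. Of all tested genes, 8.04% were separated in this way at 3 days and 14.7% at 7 days, and the members were chosen on this contrast, so nothing is read from the count. At 3 days 148 genes had a lower log2 fold change than PtrCslA2 and 103 a lower one than Potri.008G026400. At 7 days the numbers were 133 for PtrCslA2 and 407 for Potri.008G026400. Over all genes the median log2 fold change was -0.0049 at 3 days and -0.06 at 7 days.

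The comparison of 7 with 3 days of bending was not used to choose the genes. PtrCslA2 had a log2 fold change of -0.64 (SE 0.47, 95% interval -1.70 to 0.42) and did not pass edgeR's quasi-likelihood test (adjusted p = 0.450). Potri.008G026400 had a log2 fold change of 0.27 (SE 0.39, 95% interval -0.62 to 1.16), which did not pass either (edgeR adjusted p = 0.718). The value of Potri.008G026400 changed sign without 3-day replicate 3 (-0.069) and without 7-day replicate 1 (-0.037). The value of PtrCslA2 was -0.28 without 7-day replicate 3 and -1.18 without 7-day replicate 1, while it was -0.42 without 3-day replicate 1 and -0.92 without 3-day replicate 3. In this comparison 0% of the 27795 genes passed edgeR's quasi-likelihood test, while 5617 had an unadjusted p under 0.05. There edgeR's exact test called 850 genes (3.06%) and DESeq2 called 1797 (6.47%), neither copy among them. Same-numbered 3-day and 7-day libraries deviated together over all genes (correlations of 0.174 to 0.280), so they were also compared as pairs. This was a choice made after seeing the data, and some unlike-numbered unbent and bent libraries correlated as strongly. PtrCslA2 was lower at 7 days in 3 of 3 pairs, by log2 differences of -0.37, -0.76 and -1.19 in replicates 1 to 3 (exact sign-flip permutation p = 0.25, the smallest that 3 pairs allow), and 23.5% of all tested genes were lower in 3 of 3 pairs. Potri.008G026400 differed by 0.62, -0.54 and 0.91, lower in 1 of 3 pairs (exact sign-flip permutation p = 0.5). Both intervals of the unpaired fit include no change as well as a change of more than 2-fold for either copy.

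The proportion of the copies within a library does not depend on how libraries are scaled. PtrCslA2 made up 16.0%, 16.8% and 18.4% of the CslA reads in unbent replicates 1 to 3. Its share was 22.9%, 15.2% and 22.2% at 3 days and 13.0%, 13.4% and 6.25% at 7 days. The 7-day shares lay below all others, whereas the 3-day shares lay on both sides of the unbent ones. Potri.008G026400 thus held most reads of the pair in every library, although read counts of different genes are not levels per length. Reads of any other CslA gene are not part of these shares.

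The lowest share was that of 7-day replicate 3, with 430 counts of PtrCslA2 and 6445 of Potri.008G026400 (95% Wilson interval 5.71% to 6.85%, counting error only). In that library Potri.008G026400 stood at 278 CPM, beside 262 CPM in 7-day replicate 2, so the difference between these libraries lay in PtrCslA2. Counting error was 4.82% of the PtrCslA2 count there and smaller in the other libraries. Its total of 26798914 counts was within the range of the other libraries.

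The mean log2 ratio of PtrCslA2 to Potri.008G026400 was -3.11 ± 0.69 at 7 days and -2.01 ± 0.41 at 3 days. The difference of -1.10 (SE 0.46) had p = 0.1 in a two-sided exact permutation test, the smallest value that 3 against 3 libraries allow, so it cannot pass 0.05. It was -0.71 without 7-day replicate 3 (exact permutation p = 0.2), where the 7-day shares of 13.0% and 13.4% still lay below the lowest 3-day share. Against the unbent mean of -2.28 ± 0.12 the ratio differed by 0.27 at 3 days and by -0.83 at 7 days, values given without a test. The 7-day difference was -0.43 without 7-day replicate 3, and the 3-day difference ran from 0.14 to 0.50 with single libraries left out. Reads that fit both copies may have been split or counted at each, and the sources used here do not say which.

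**Figure D2:**
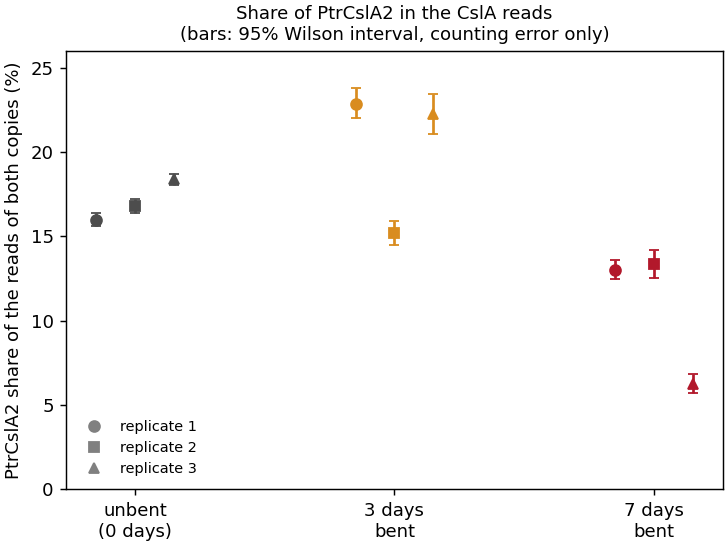
Share of PtrCslA2 in the reads of both CslA copies (y axis, %) in each library of the 3 groups. Bars are 95% Wilson intervals, which cover counting error only. The 7-day libraries lie at 6.25% to 13.4%, and the unbent libraries at 16.0% to 18.4%.

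Both copies varied between replicates more than most genes of like level. The fitted biological coefficient of variation was 40.2% for PtrCslA2, against a median of 20.0% over the 1293 genes within 0.5 log2 CPM of it, 96.8% of which had a lower value. For Potri.008G026400 it was 33.5%, against a median of 26.5% over 187 such genes. The copies shared part of that spread. In the unbent group replicate 3 was the highest and replicate 2 the lowest for both, and among the 3-day libraries replicate 3 was the lowest for both. That 3-day low was also seen in the 5 cellulose synthases, PtrIRX10-1, PtrMYB092 and PtrHSFB3-1. The copies differed in the highest 3-day library, replicate 1 for PtrCslA2 and 2 for Potri.008G026400. They also differed in the lowest 7-day library, replicate 3 for PtrCslA2 and 2 for Potri.008G026400.

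The sum of both copies was 345 ± 136 CPM at 3 days and 1473 ± 474 CPM in unbent xylem. At 7 days their sum was 378 ± 136 CPM, against the same unbent value. The summed level was 23.4% of the unbent mean at 3 days and 25.7% at 7 days, so the lower PtrCslA2 and higher Potri.008G026400 means at 7 days left the sum near its 3-day value.

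The other wall polysaccharide genes with an ID in the study's lists did not share the separation of the CslA copies at both times. These are PtrCesA4, PtrCesA7, PtrCesA8, PtrCesA17 and PtrCesA18, the secondary wall cellulose synthases, and PtrIRX10-1, of the family that makes the xylan backbone. At 3 days 0 of these 6 genes passed edgeR's quasi-likelihood test, by which 0% of all genes passed. There 3265 genes had an unadjusted p under 0.05, edgeR's exact test called 469 genes (1.69%) and DESeq2 called 913 (3.28%), with 0 of the 6 among either. Their log2 fold changes at 3 days ran from -1.29 for PtrCesA4 to 0.44 for PtrCesA18, with a median of -0.062 over the list. Of the 6, PtrCesA4 was the 1 with all 3-day libraries below all unbent ones, a separation that 8.04% of all genes had.

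At 7 days 1 of the 6 genes rose and 0 fell by edgeR's quasi-likelihood test, where 6.07% of all genes rose and 2.68% fell. All 7-day libraries of PtrCesA7, PtrCesA8, PtrCesA18 and PtrIRX10-1 lay above all unbent ones, a separation that 16.3% of all genes had. PtrCesA18 rose to 5384 ± 991 CPM, against 1989 ± 195 CPM in unbent xylem (a log2 fold change of 1.44 with SE 0.36, adjusted p = 0.0405 by edgeR). PtrIRX10-1 measured 1375 ± 369 CPM at 7 days and 635 ± 136 CPM in unbent xylem (log2 fold change 1.11, SE 0.32, edgeR adjusted p = 0.0617). The median log2 fold change was 0.93 over the 6 genes, against -0.06 over all genes. The PtrCesA18 call was lost without any 1 of the unbent libraries, 3-day replicate 1, or 7-day replicate 1 or 3, leaving 0 genes called, and 2 genes were called without 3-day replicate 3 or 7-day replicate 2. At 7 days edgeR's exact test called 4 of the 6 and 12.3% of all genes, and DESeq2 called 3 of the 6 and 16% of all genes. Between 7 and 3 days 0 of the 6 passed edgeR's quasi-likelihood test, and DESeq2 called PtrCesA7, PtrCesA18 and PtrIRX10-1 higher.

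**Figure D3:**
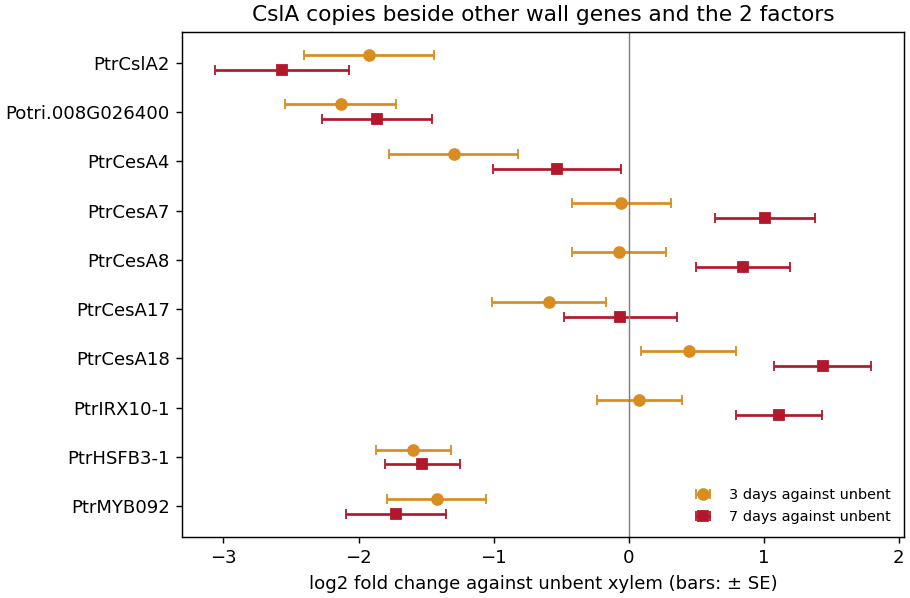
Log2 fold changes against unbent xylem (x axis, bars ± SE) of the CslA copies, the 6 other wall polysaccharide genes and the transcription factors PtrHSFB3-1 and PtrMYB092, at 3 days (circles) and 7 days (squares). PtrCslA2 lies at -1.92 and -2.57 and Potri.008G026400 at -2.13 and -1.86, while PtrCesA18 lies at 0.44 and 1.44.

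Within the same libraries, the CslA reads were few beside those of cellulose and xylan genes after bending. For every 100 reads of the 5 cellulose synthases there were 21.9, 16.2 and 26.8 CslA reads in unbent replicates 1 to 3. There were 7.35, 5.29 and 5.80 at 3 days and 4.18, 3.78 and 2.51 at 7 days. The 3 groups did not overlap, and the libraries at 7 days lay below those at 3 days, which was not so for either CslA copy in CPM. In CPM, 11.3% of all genes had all 7-day libraries below all 3-day ones, and no such share was computed for ratios. The 5 cellulose synthases together stood at 5339, 8524 and 3295 CPM at 3 days and 12794, 8001 and 11834 CPM at 7 days (replicates 1 to 3). The mean CslA sum was 345 CPM at 3 days and 378 CPM at 7 days.

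Against PtrIRX10-1 the order was the same. For every 100 of its reads there were 220, 134 and 401 CslA reads in the unbent libraries, 59.8, 51.4 and 40.1 at 3 days and 35.5, 31.6 and 17.9 at 7 days. Between 7 and 3 days the log2 ratio differed by -0.84 for the cellulose synthases and by -0.87 for PtrIRX10-1, each with p = 0.1 in a two-sided exact permutation test, the smallest possible. Over the 3 ratios compared between 7 and 3 days, the Benjamini-Hochberg adjusted value of each exact permutation p was also 0.1. The ratios to the cellulose synthases and to PtrIRX10-1 were added after the files were seen and share the same summed CslA reads. Their p-values are therefore a description. Within same-numbered pairs the 7-day library was lower in 3 of 3 for each ratio, by -0.81, -0.48 and -1.21 for the cellulose synthases and by -0.75, -0.70 and -1.16 for PtrIRX10-1 (exact sign-flip permutation p = 0.25 each, the smallest possible). Without 7-day replicate 3 the difference was -0.61 for the cellulose synthases and -0.57 for PtrIRX10-1. The summed CslA level was 378 ± 136 CPM at 7 days and 345 ± 136 CPM at 3 days, whereas PtrIRX10-1 stood at 1375 ± 369 CPM at 7 days and 670 ± 201 CPM at 3 days. 3-day replicate 3, the lowest library of its group for both copies, was also the lowest for the 5 cellulose synthases (3295 CPM, with 5339 and 8524 CPM in replicates 1 and 2), and what part this had in the CslA values was not tested.

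**Figure D4:**
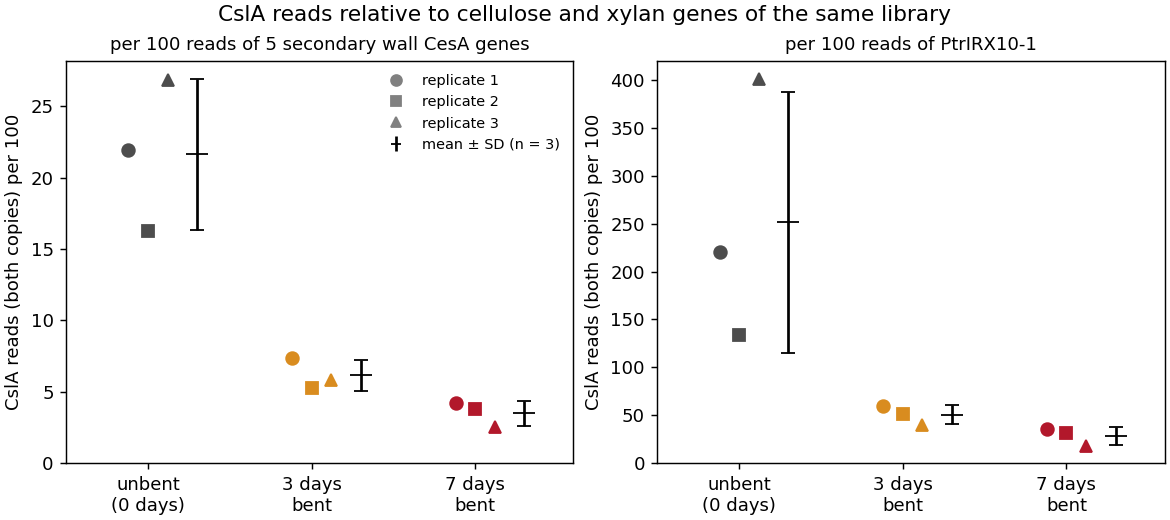
CslA reads of both copies per 100 reads of the 5 secondary wall cellulose synthases (left) and per 100 reads of PtrIRX10-1 (right). Points are libraries and bars are mean ± SD (n = 3). The groups do not overlap in either panel, with 16.2 to 26.8, 5.29 to 7.35 and 2.51 to 4.18 CslA reads on the left for unbent, 3-day and 7-day libraries. Between 7 and 3 days the 6 genes of the denominators had log2 fold changes of 0.53 to 1.07.

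PtrMYB092, a MYB transcription factor, and PtrHSFB3-1, a class B heat shock factor, are the regulators that the study followed because they were repressed by bending, so their direction here is not independent evidence. PtrMYB092 measured 88.7, 34.8 and 97.4 CPM in unbent replicates 1 to 3, 27.3, 28.8 and 26.4 CPM at 3 days and 25.7, 27.0 and 14.3 CPM at 7 days. Its highest and lowest unbent libraries, replicates 3 and 2, were also those of both CslA copies, and its lowest bent library was 7-day replicate 3, as for PtrCslA2. PtrCesA4 (2261, 1695 and 2982 CPM) and PtrActin (877, 794 and 904 CPM) had the same highest and lowest unbent libraries. PtrHSFB3-1, PtrIRX10-1 and the other cellulose synthases did not. A link of PtrMYB092 with the CslA genes was not tested in these libraries. In the study, overexpressed PtrMYB092 activated PtrCslA2 in xylem protoplasts, where chromatin immunoprecipitation placed the gene among the indirect targets. Trees edited to lose PtrMYB092 had less PtrCslA2 transcript in the study, and overexpressing trees had more. PtrMYB092 did not separate the 3-day libraries, which spanned 26.4 to 28.8 CPM, whereas PtrCslA2 spanned 42.5 to 89.8 CPM in them.

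PtrHSFB3-1 measured 23.9, 17.9 and 17.0 CPM in unbent replicates 1 to 3, 7.66, 8.01 and 3.83 CPM at 3 days and 7.76, 6.22 and 6.39 CPM at 7 days. In the 3-day group replicate 2 was the highest and replicate 3 the lowest, an order shared by Potri.008G026400, PtrMYB092, PtrIRX10-1 and each of the 5 cellulose synthases. At 7 days 2 of the 2 factors fell by edgeR's quasi-likelihood test, where 2.68% of all genes fell, and at 3 days 0 of 2 passed, while edgeR's exact test and DESeq2 each called 2 there. The study chose both factors for their fall in these same libraries, so these counts are a description. The 7-day count was 0 without unbent replicate 1 or 7-day replicate 3, and 1 without unbent replicate 3 or 7-day replicate 1.

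PtrActin, the actin gene whose promoter was the control of the study's chromatin immunoprecipitation assays, measured 743 ± 40.3 CPM at 3 days and 859 ± 57.3 CPM in unbent xylem, with no overlap of the libraries. All its 3-day libraries lay below all unbent ones, a separation that 8.04% of all genes had. At 7 days it measured 826 ± 90.0 CPM, against the same unbent level, and overlapped with it. Its log2 fold changes of -0.21 and -0.06 did not pass edgeR's quasi-likelihood test (adjusted p = 0.720 at 3 days and 0.881 at 7 days).

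Likeness of pattern was measured as the root mean square difference of log2 CPM, each gene centred on its own mean of the 9 libraries. By this measure Potri.008G026400 was number 33 of 27794 genes in likeness to PtrCslA2, with a difference of 0.60, while the median gene differed by 1.31. Seen from Potri.008G026400, PtrCslA2 was number 132, and the median gene differed by 1.12. The nearest gene to PtrCslA2 was Potri.002G023900 (difference 0.26), at 23.1, 17.0 and 43.5 CPM in unbent replicates 1 to 3 and 2.72 to 8.53 CPM in the bent libraries. The nearest to Potri.008G026400 was Potri.017G074400 (difference 0.25), at 45.3, 27.9 and 37.0 CPM in unbent replicates and 6.45 to 17.2 CPM in the bent libraries. The files do not pair these IDs with names, and likeness over these bent and unbent libraries is a description only.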

How the data were processed

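The authors deposited raw read counts per gene model, whole numbers with no normalization. The submitters' processing notes name TopHat. The deposited table is labelled as gene models v3, and the study states genome v3.0 for its protoplast libraries. For these libraries the aligned build, the counting program, the use of strand and the handling of reads fitting several places were not found in the sources used here. Columns were matched to samples by name (0 unmatched). Names and primers came from the study's lists. The RefSeq table (P.trichocarpa_v4.1) held 0 of the gene IDs, so a list of mannan pathway genes by description was not built, and protein, promoter and length were not used.

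In R 4.3.3, edgeR 4.0.16 was run on the counts. The filterByExpr rule chose the genes, and libraries were scaled by TMM factors and fitted with a quasi-likelihood model of 3 groups over 9 libraries. Tests were two-sided, with a threshold of 0.05 on p-values adjusted over all genes by Benjamini-Hochberg. The SE is the absolute log2 fold change divided by the square root of F. Comparisons with unbent xylem carry no test for the CslA genes. Ratios were compared by exact permutation tests. Ratios to cellulose synthases and PtrIRX10-1 were added after the files were seen. Log2 CPM used a prior count of 2. 1 count equals 0.0321 to 0.0482 CPM.

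Libraries of a group differed beyond sampling noise (chi-square per gene of at least 20.8 over genes with 10 or more counts in a pair). Deviations from group means correlated between same-numbered 3-day and 7-day libraries (0.280, 0.244 and 0.174), and by -0.272 to 0.029 between unlike-numbered ones. Unlike-numbered unbent and bent libraries had correlations of -0.282 to 0.330. Such values therefore do not show that same-numbered libraries belong together. The labels state no pairing, and the pairs are an alternative taken from the data. Same-numbered unbent and bent libraries had correlations of -0.341 to 0.392, so no pairing was assumed there.

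The CslA genes, the gene lists and the alternatives were chosen with earlier results of these data known. Named genes are the CslA genes, the genes of the lists, and the nearest genes by likeness, of which 1 per CslA gene is named. Alternatives were RLE factors, library totals, no filter and a stricter filter, DESeq2 1.42.0, edgeR's exact test, only the compared groups, the replicate block, thinning to the smallest library, an added count in ratios, and each library left out.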

Additional observations from a re-analysis of the deposited data

How the results depend on the processing

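Both CslA genes kept a negative log2 fold change against unbent xylem under all 18 alternatives of each comparison, from -2.16 to -1.56 (PtrCslA2) and -2.44 to -1.81 (Potri.008G026400) at 3 days, and from -3.10 to -2.20 and -2.17 to -1.63 at 7 days. The CslA genes were chosen on this contrast, so the kept sign is a description and not support. Between 7 and 3 days neither passed under any of 20 alternatives (p, adjusted except within pairs, from 0.181 to 0.801 and from 0.429 to 0.975). PtrCslA2 stayed negative with single libraries left out (-1.18 to -0.28), while Potri.008G026400 ran from -0.069 to 0.57 and changed sign without 3-day replicate 3 (-0.069) and 7-day replicate 1 (-0.037). When libraries were scaled by their totals alone, the median of all genes was -0.33 at 7 days against unbent, and PtrCslA2 was at -2.86 and Potri.008G026400 at -2.16.

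With the replicate block, PtrCslA2 had log2 fold changes of -2.03 at 3 days, -2.74 at 7 days and -0.70 between 7 and 3 days, and the paired difference of the copies' log2 ratio was -1.10 (exact sign-flip p = 0.25, the smallest that 3 pairs allow). In a block fit of the bent libraries alone, chosen after seeing the data, PtrCslA2 was at -0.81 and Potri.008G026400 at 0.29, and the mean differences within pairs were -0.77 and 0.33. The block moved the called wall genes to 0 and the called factors to 1 at 7 days and changed no call of a CslA gene.

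Of the 6 other wall genes DESeq2 called 3 and edgeR's exact test 4 at 7 days, and DESeq2 called 3 between 7 and 3 days; both tools called 2 of 2 factors at 3 days. With single libraries left out the 7-day counts ran from 0 to 2 for the wall genes and from 0 to 2 for the factors. At 7 days 2432 of all genes passed the quasi-likelihood test and 4438 passed DESeq2. Leaving out single libraries gave 343 to 2704, with 343 without 7-day replicate 3, 643 without unbent replicate 1, 910 without 7-day replicate 1 and 983 without unbent replicate 3. At 3 days 0 genes passed, DESeq2 called 913 and the exact test 469, and single libraries left out gave 0 to 30. Between 7 and 3 days the numbers were 0, 1797 and 850, and 0 to 3. Depth limits PtrCslA2 little, as its lowest count was 430, and the spread between replicates sets the width of the intervals.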
